A study of Saccharomyces cerevisiae with 12 samples.

Results

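The genes described here are the 53 genes of budding yeast (Saccharomyces cerevisiae) that encode proteins of the large, 60S subunit of the cytosolic ribosome and that carry an intron. They were chosen by their systematic names, RPL2A to RPL43B and RPP1B, out of the 7126 genes of the deposited count table, and not by any measured value. RNA-seq reads of ribodepleted total RNA were counted per gene in 12 libraries that form 6 groups of 2. The genotypes are the wild type, cells lacking the MMS2 intron and cells lacking the YSF3 intron, each sampled in log phase and in stationary phase at 48 h, all in the BY laboratory background and in synthetic minimal medium with 2% glucose supplemented with histidine, leucine, uracil and lysine. MMS2 encodes a ubiquitin-conjugating enzyme variant and YSF3 a small splicing factor subunit, and the strains are called mms2Δi and ysf3Δi, as the labels write them. Each genotype had 2 strains, and the labels give the same strain numbers in log phase and at 48 h. The series asked how the loss of an intron bears on the repression of genes during starvation.

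Ribosomal protein genes are among the most strongly transcribed genes of a growing yeast cell, where the factors Rap1, Fhl1 and Ifh1 act at their promoters, and starvation turns them down through the TORC1 and protein kinase A pathways. Introns are rare in yeast, but ribosomal protein genes hold many of them, and most ribosomal proteins are encoded by a pair of paralogs that remain from an ancient genome duplication. Some of the proteins limit their own supply through their introns: Rpl30 binds its own pre-mRNA near the 5' splice site and blocks splicing, and Rpl22 binds the intron of RPL22B and inhibits its splicing.

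The 53 genes comprised 24 pairs of an A and a B copy and 5 genes without an intron-containing partner, namely RPL25, RPL28, RPL30, RPL39 and RPP1B. RPL7A and RPL7B had 2 introns each and the other genes 1, and the longest intron of a gene ran from 147 nt in RPL2A to 561 nt in RPL27A, with a median of 405 nt. The first 6 bases of the longest intron were GTATGT in 42 genes. RPL16A, RPL16B, RPL22B, RPL27A and RPL27B had GTACGT there, RPL22A and RPL43A had GTATGA, RPL40A and RPL43B had GTATGC, RPL20A had GTGAGT and RPL30 had GTCAGT. The yeast branch site TACTAAC was found in the longest intron of 51 genes, RPL7B and RPL19A being the exceptions. The introns of RPL30, RPL22A and RPL22B are printed here because these genes are followed below as the autoregulated genes, whatever their results. RPL30 (YGL030W) lies on chromosome VII from 439091 to 439638 on the + strand, with a first exon of 3 bases, and its intron of 230 nt is at VII:439094-439323. RPL22A (YLR061W) has its intron of 389 nt at XII:263206-263594 on the + strand, and RPL22B (YFL034C-A) has its intron of 321 nt at VI:64600-64920 on the - strand. Sequences come from the RefSeq genome R64, the build that the labels name as sacCer3, and run 5' to 3' on the coding strand. Capitals mark the 5' splice site, the branch site and the last 2 bases of the intron.
RPL30 intron: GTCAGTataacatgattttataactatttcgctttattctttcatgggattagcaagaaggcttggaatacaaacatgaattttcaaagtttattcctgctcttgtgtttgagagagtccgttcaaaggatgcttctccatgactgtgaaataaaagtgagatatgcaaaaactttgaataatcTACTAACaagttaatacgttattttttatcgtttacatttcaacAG
RPL22A intron, first 30 bases: GTATGAtactttaaaaggaatccacgcccg
RPL22A intron, branch site to end: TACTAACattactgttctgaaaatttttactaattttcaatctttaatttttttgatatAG
RPL22B intron, first 30 bases: GTACGTtaattttcgttcctatgtcacaat
RPL22B intron, branch site to end: TACTAACataaaactgtaacAG
The RPL22 introns thus differed from each other at the 5' splice site, and the branch site of RPL22B lay closer to the end of the intron, at 13 bases against 52 in RPL22A and 37 in RPL30, counted between the branch site and the final AG.

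The library totals ran from 4871513 to 16581925 counts, and all 53 genes passed the filter on low counts that left 6068 genes for testing. The lowest count of any of the 53 genes in any library was 3, for RPL33B in wild-type strain 1 at 48 h. A list of 6 genes of the post-diauxic and stationary phase summed to between 10.9 and 16.0 CPM (read counts scaled to library size with edgeR's TMM factors) in log phase and to between 4980.4 and 6476 CPM at 48 h. Wild-type strain 1 stood apart from the other 5 strains: in log phase its 7 a-cell genes summed to 34.6 CPM, beside 1483 to 2039 in the other log-phase libraries, and its 5 alpha-cell genes to 2538 CPM, beside 24.4 to 41.0. At 48 h the alpha-cell genes stood at 125 CPM in that strain and at 30.1 to 45.4 in the others. Counts of genes called against the wild type are therefore given with and without it. Counts under alternative fits come without the share of all genes called in the same fit. They therefore do not show whether a change is particular to the 53 genes. The count of a gene carries no check of the deleted introns, and with bulk RNA, fewer transcripts per cell and a smaller share of all RNA cannot be told apart.

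Together the 53 genes took 2.90% and 2.58% of the counts of wild-type strains 1 and 2 in log phase, 3.38% and 3.27% of those of mms2Δi and 3.74% and 2.98% of those of ysf3Δi. At 48 h the wild type had shares of 0.373% and 0.438%, mms2Δi 0.513% and 0.604%, and ysf3Δi 0.503% and 0.466%. The shares of each deletion thus lay above those of the wild type in both phases. No 48 h library came near a log-phase library. The 53 genes also moved together between the 2 strains of a group. Their median log2 ratio of strain 1 to strain 2 was 0.30 in the wild type in log phase and -0.45 at 48 h. In mms2Δi it was 0.02 and -0.39, and in ysf3Δi 0.43 and 0.15. The genes called in a comparison are therefore not separate observations. Levels were compared between genes as CPM per kb of exon (means of 2 libraries), because the deposited FPKM values were computed with 1 exon of each gene, the first exon for 32 genes and the last exon for 21, within a tolerance of 0.5 base. For RPL30 that exon has 3 bases, so its deposited FPKM of 10034 in the wild type in log phase stood for 94.7 CPM per kb of exon.

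The per-kb levels in the wild type in log phase spanned a wide range. RPL33B was the lowest gene at 29.0 CPM per kb, followed by RPL43B at 36.2, whose libraries overlapped those of RPL33B, RPL7B at 47.1 and RPL30 at 94.7, while RPL19A, whose protein reaches across to the small subunit, was the highest at 4879. RPL19B at 4443 and RPL28, the gene of a protein known for cycloheximide resistance mutations, at 3370 came next. The SD of the levels was smaller in the deletions: the SD of the log2 level over the 53 genes was 1.57 and 1.75 in the wild-type libraries in log phase and 1.74 and 1.39 at 48 h, and lay between 1.11 and 1.25 in the 8 libraries of the deletions. The interquartile range did not separate the genotypes in this way, at 1.18 in wild-type strain 2 at 48 h and 1.20 and 1.37 in ysf3Δi in log phase. RPL30 was the fourth lowest gene in the wild type in log phase, with its neighbours RPL43B and RPL7B below it in both libraries.

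**Figure D1:**
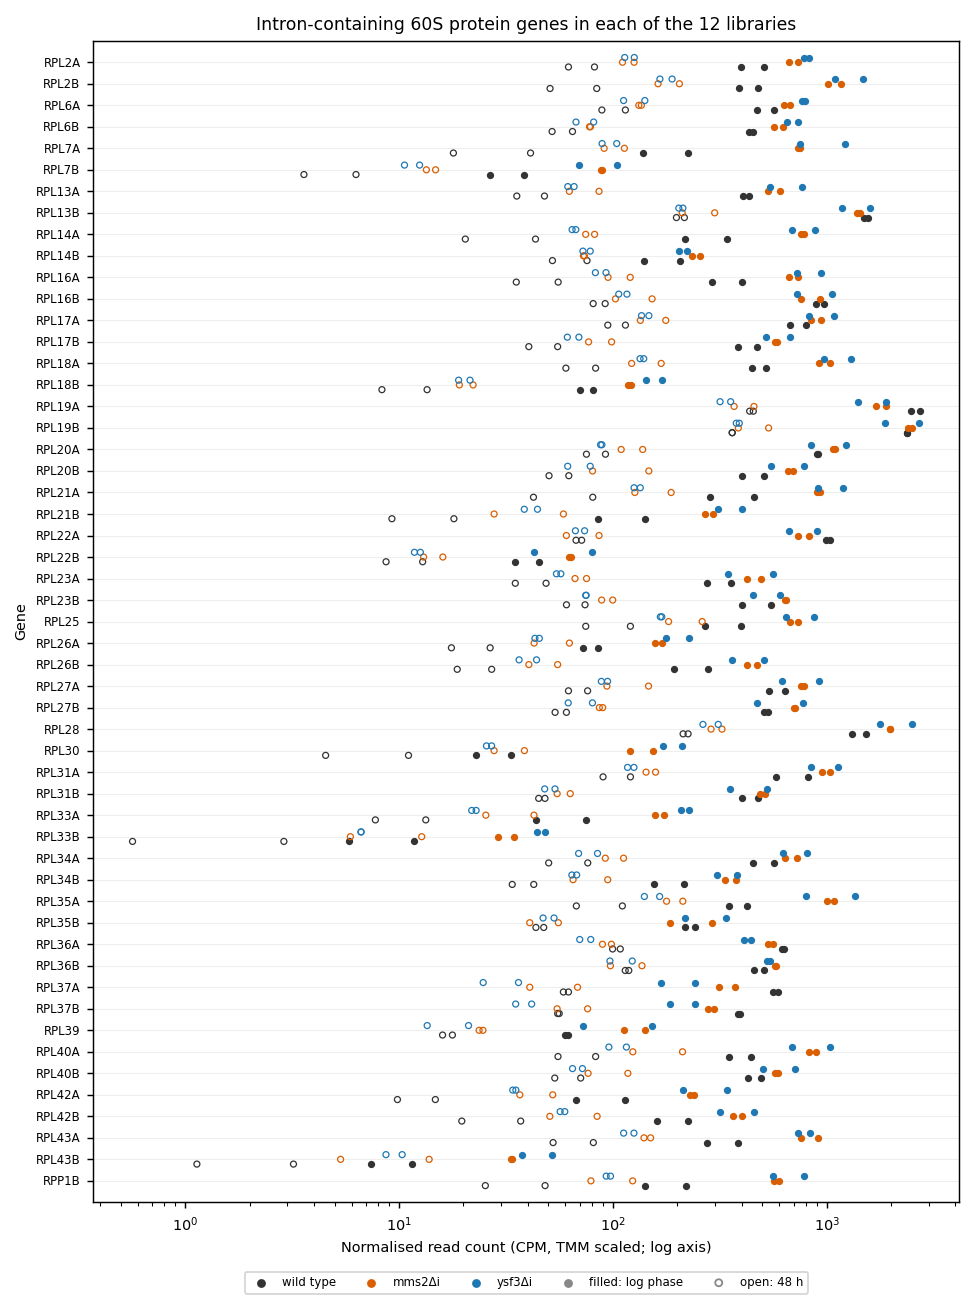
Normalised read counts (CPM, log axis) of the 53 genes in each of the 12 libraries, filled for log phase and open for 48 h, coloured by genotype. Every gene is lower at 48 h than in log phase within its genotype, and RPL30, RPL33B and RPL43B, which are among the genes with low counts, have wide gaps between the wild type and the deletions, as has RPL7A at higher counts.

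The comparison of 48 h with log phase asks how far these genes are turned down when nutrients run out. All 53 genes fell in the wild type, in mms2Δi and in ysf3Δi, and in every case both 48 h libraries lay below both log-phase libraries. Of all genes tested, 34.3% were called lower in the wild type, 30.7% in mms2Δi and 32.9% in ysf3Δi by the same edgeR quasi-likelihood test at an adjusted p under 0.05. The share of all tested genes whose 48 h libraries lay below was 42.5%, 40.2% and 40.8%. The median log2 fold change of the 53 genes was -2.72 in the wild type (range -3.87 to -1.42), -2.54 in mms2Δi (-3.40 to -1.62) and -2.89 in ysf3Δi (-3.57 to -1.50), beside medians over all genes tested of -0.01, 0.06 and 0.03. Among other ribosomal protein genes, 24, 25 and 25 of the 26 tested large-subunit genes without an intron in the coding sequence fell in the 3 genotypes, with medians of -2.17, -2.02 and -2.40. Of 36 small-subunit genes with an intron 36, 34 and 36 fell, with medians of -2.74, -2.60 and -2.84. The authors' deposited tables list only genes under an adjusted p of 0.001, and have all 53 genes as lower at 48 h in each genotype. They hold 2865, 2690 and 2629 genes in the wild type, mms2Δi and ysf3Δi. Against the wild type they hold 547 and 179 genes for mms2Δi in log phase and at 48 h. For ysf3Δi they hold 309 and 224. Without wild-type strain 1, 51 of the 53 genes were called lower in the wild type, where 1 library per phase was then left and was assumed to vary like the others.

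RPL22A fell furthest in the wild type. Its normalised read counts were 996 and 1034 CPM in log phase and 71.5 and 67.3 at 48 h, a log2 fold change of -3.87 ± 0.21 (± an approximate error drawn from the F statistic; adjusted p of 1.14e-07, n = 2 per group). RPL20A went from 905 and 909 CPM to 75.2 and 92.4 (-3.43 ± 0.21, adjusted p of 2.09e-07). RPL16B, which encodes a protein on the solvent side of the subunit, went from 972 and 888 to 80.9 and 92.1 (-3.42 ± 0.24, adjusted p of 5.55e-07). In these genes the strains of a phase lay close together and the phases far apart. RPL22A, RPL20A and RPL26B were among the 4 genes with the largest falls in all 3 genotypes, and RPL14A joined them in place of RPL16B in mms2Δi (-3.30 ± 0.32, adjusted p of 5.64e-06) and ysf3Δi (-3.57 ± 0.32, adjusted p of 3.06e-06). RPL14A stood at 787 and 760.4 CPM in mms2Δi in log phase and at 74.6 and 82.1 at 48 h.

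The smallest falls belonged to another group of genes. RPL14B went from 205 and 140.0 CPM to 52.2 and 75.7 in the wild type (-1.42 ± 0.21, adjusted p of 0.000107), so that its fall was much smaller than that of its paralog RPL14A. RPL25, whose protein sits at the exit of the polypeptide tunnel and helps to dock the signal recognition particle, went from 399 and 269 to 74.7 and 120.8 (-1.76 ± 0.28, adjusted p of 0.000192). RPL26A, whose protein also lies near the tunnel exit, went from 84.9 and 72.8 to 17.6 and 26.7 (-1.80 ± 0.23, adjusted p of 4.42e-05). RPL25 and RPL26A were among the 4 smallest falls in all 3 genotypes, at -1.66 ± 0.27 and -1.62 ± 0.23 in mms2Δi and -2.17 ± 0.28 and -2.19 ± 0.23 in ysf3Δi (adjusted p of 0.0003, 8.88e-05, 4.31e-05 and 9.07e-06). The others were RPL30 in the wild type, RPL33B and RPL43B in mms2Δi at -1.70 ± 0.44 and -1.72 ± 0.41 (adjusted p of 0.00552 and 0.0033), and RPL14B and RPL43B in ysf3Δi at -1.50 ± 0.21 and -2.24 ± 0.41 (adjusted p of 7.11e-05 and 0.000562). RPL33B and RPL43B rested on few counts at 48 h, and their falls in mms2Δi were -2.43 and -2.66 without strain 2 at 48 h and -1.32 and -1.28 without strain 1 at 48 h.

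**Figure D2:**
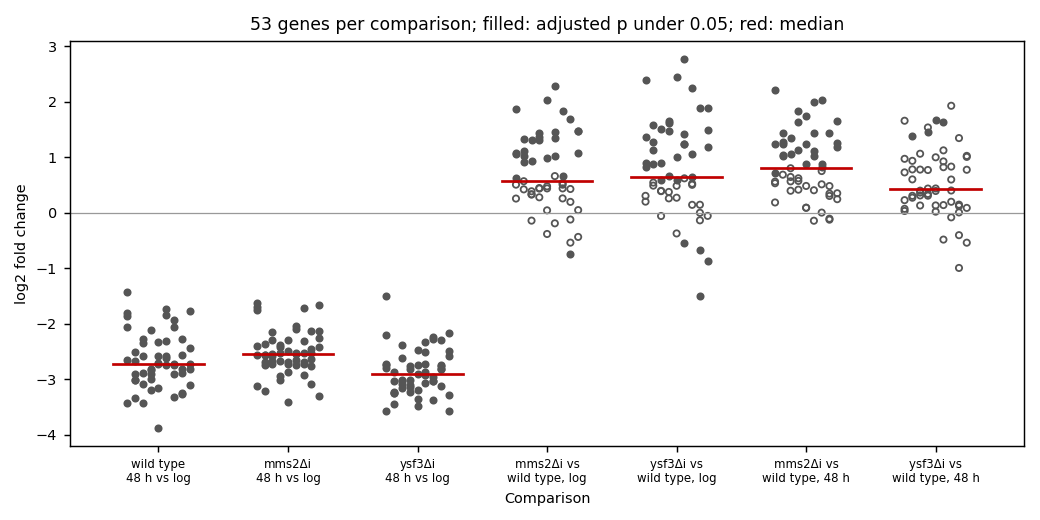
Log2 fold changes of the 53 genes at 48 h against log phase in 3 genotypes and for each deletion against the wild type in 2 phases. Each point is a gene, filled where the adjusted p was under 0.05, and the red line is the median, which lies at -2.72, -2.54 and -2.89 for the phase changes and at 0.57, 0.65, 0.80 and 0.44 for the deletions.

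RPL30 was the gene that differed most between the genotypes in log phase. Its counts there were 33.4 and 23.0 CPM in the wild type, 120.9 and 154 in mms2Δi and 210.5 and 172 in ysf3Δi. At 48 h the wild type had 4.54 and 11.1 CPM, mms2Δi 27.8 and 38.6, and ysf3Δi 27.1 and 25.7. In both phases each library of a deletion lay above both wild-type libraries, and the wild-type log-phase libraries overlapped the range of the 48 h libraries of the deletions. The difference from the wild type was 2.29 ± 0.31 in log phase and 1.99 ± 0.34 at 48 h in mms2Δi (adjusted p of 0.0116 and 0.0143), and 2.76 ± 0.31 and 1.64 ± 0.33 in ysf3Δi (adjusted p of 0.00482 and 0.039). The fall at 48 h was -1.74 ± 0.33 in the wild type, -2.03 ± 0.31 in mms2Δi and -2.86 ± 0.32 in ysf3Δi (adjusted p of 0.000783, 0.000169 and 1.44e-05). The difference between those falls did not pass the test: it was -0.29 ± 0.45 for mms2Δi (adjusted p of 0.829, and 0.50 without wild-type strain 2 at 48 h) and -1.12 ± 0.45 for ysf3Δi, with an unadjusted p of 0.0291 and an adjusted p of 0.905. The wild-type fall of RPL30 was -2.63 without strain 2 at 48 h and -1.38 without strain 1 at 48 h, and its difference of falls in ysf3Δi was -1.52 and -0.28 without wild-type strain 1 or 2 at 48 h. Its ysf3Δi difference at 48 h was 1.25 without wild-type strain 1 and then no longer passed the test. It was 2.49 without wild-type strain 2, where it passed. That call was also lost without ysf3Δi strain 1 or 2 at 48 h (1.61 and 1.69). In mms2Δi the log-phase call was lost without strain 2 of the wild type (2.04) or of mms2Δi (2.10) in log phase. The mms2Δi call at 48 h was lost without wild-type strain 1 (1.57) or mms2Δi strain 2 (1.72) at 48 h.

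RPL22A and RPL22B, the pair with the lowest identity of the 24 pairs (78.9% of coding bases and 84.4% of residues), gave another picture. RPL22A stood at 996 and 1034 CPM in the wild type in log phase, at 823 and 735 in mms2Δi and at 901 and 667 in ysf3Δi. RPL22B stood at 45.0 and 34.8, 64.03 and 62.1, and 79.9 and 42.9 CPM, in the same order. The A copy thus lay below the wild type in both deletions, and the B copy above it except for ysf3Δi strain 2, within the spread of the wild type. Neither difference passed the test: RPL22A was at -0.38 ± 0.19 and -0.37 ± 0.19 (adjusted p of 0.148 and 0.161), and RPL22B at 0.66 ± 0.27 and 0.62 ± 0.27 (adjusted p of 0.0888 and 0.110). Some alternatives turned these calls: with library totals as the scaling, which also lowered the median of all genes, RPL22A passed as lower in both deletions at -0.52 and -0.55 (-0.15 and -0.18 over all genes). RPL22B passed as higher in mms2Δi without either ysf3Δi library in log phase, at 0.66 and 0.68, and in ysf3Δi without its strain 2 in log phase, at 1.04. At 48 h RPL22A lay between 60.6 and 86.2 CPM and RPL22B between 8.70 and 16.0 over all 6 libraries, and the adjusted p values against the wild type were 0.781 and 0.384 for mms2Δi and 0.966 and 0.830 for ysf3Δi. RPL22B changed at 48 h by -1.85 ± 0.29 in the wild type, -2.10 ± 0.29 in mms2Δi and -2.33 ± 0.29 in ysf3Δi (adjusted p of 0.000221, 8.86e-05 and 3.67e-05), each a smaller fall than that of RPL22A.

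**Figure D3:**
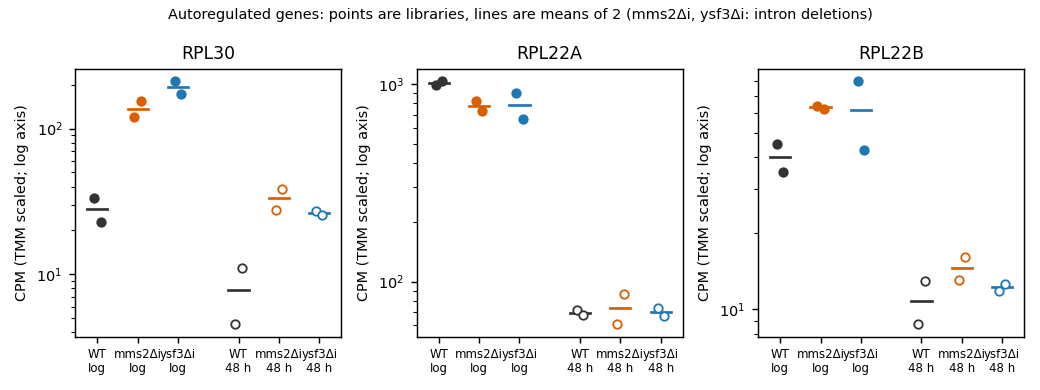
Normalised read counts (CPM, log axis) of RPL30, RPL22A and RPL22B in the 6 groups. Points are libraries and lines are means of 2: RPL30 is higher in both deletions in both phases, while RPL22A lies between 667 and 1034 CPM in log phase and between 60.6 and 86.2 at 48 h in all genotypes.

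The comparison of mms2Δi with the wild type in log phase asks whether the loss of an unrelated intron goes along with a change in these genes during growth. Of the 53 genes 25 were higher and 1 was lower, beside 13.9% and 13.3% of all genes tested, with a median log2 fold change of 0.57 and a median over all genes of -0.01. Both deletion libraries lay above both wild-type libraries for 45 genes and below for 6, beside 36.3% and 37.4% of all genes. Of the 26 large-subunit genes without a coding intron 17 were higher and 1 lower (median 0.93), and of the 36 small-subunit genes with an intron 17 and 2 (median 0.57). The highest genes after RPL30 were RPL7A, RPL33B and RPL43B. RPL7A, which encodes an early-binding protein of the subunit, stood at 225 and 138 CPM in the wild type and at 747 and 737 in mms2Δi (2.03 ± 0.36, adjusted p of 0.0116). RPL33B stood at 11.7 and 5.87 CPM in the wild type and at 29.1 and 34.5 in the deletion (1.86 ± 0.43, adjusted p of 0.0154), and RPL43B, which encodes a zinc-binding protein, at 11.5 and 7.42 and at 33.7 and 33.3 (1.83 ± 0.40, adjusted p of 0.0142). In all 3 genes the deletion libraries lay well above the wild-type libraries, with strain 1 the higher of the wild-type libraries.

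RPL37A, the gene of another zinc-binding protein, was the single gene called lower in that comparison. It stood at 562 and 589 CPM in the wild type and at 312 and 372 in mms2Δi (-0.75 ± 0.25, adjusted p of 0.0481), and the call was lost with DESeq2 size factors and in 8 of the 12 fits that left out 1 library. The smallest called increases were those of RPL2A at 0.62 ± 0.17, RPL18B at 0.66 ± 0.19 and RPL26B at 0.92 ± 0.24 (adjusted p of 0.0261, 0.0288 and 0.0233). With library totals as the scaling, 25 genes were higher and 5 lower, and the median of all genes moved by -0.14. No gene was called higher without wild-type strain 2 or without mms2Δi strain 2 in log phase, although the values of RPL30 and RPL7A then stayed at or above 2.04 and 1.72. Without wild-type strain 1 in both phases 26 genes were higher and 0 lower. The authors' deposited table, under an adjusted p of 0.001, lists 23 of the genes as higher and 1 as lower, out of 547 genes listed.

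ysf3Δi, which was compared with the same wild-type libraries, had 29 genes higher and 4 lower in log phase, beside 13.7% and 13.5% of all genes tested, with a median of 0.65 and a median over all genes of -0.01. Both of its libraries lay above both wild-type libraries for 36 genes and below for 5, beside 29.5% and 33.8% of all genes. Of the large-subunit genes without a coding intron 16 of 26 were higher (median 0.93), and of the small-subunit genes with an intron 17 of 36 were higher and 2 lower (median 0.61). RPL7A stood at 1224 and 747 CPM (2.44 ± 0.37, adjusted p of 0.00519), RPL33B at 47.9 and 44.4 (2.40 ± 0.43, adjusted p of 0.00679) and RPL43B at 52.0 and 37.5 (2.24 ± 0.40, adjusted p of 0.00664). These were again the highest genes after RPL30, and for most of the 53 genes ysf3Δi strain 1 was the higher library of its group. The lower genes were led by RPL37A at 243 and 167 CPM (-1.49 ± 0.26, adjusted p of 0.00593) and its paralog RPL37B at 243 and 185, beside 386 and 394 in the wild type (-0.87 ± 0.18, adjusted p of 0.00875). RPL19A stood at 1902 and 1395 CPM, beside 2486 and 2732 in the wild type (-0.66 ± 0.19, adjusted p of 0.027), and this call was lost without either wild-type library in log phase, without wild-type strain 1 in both phases, and without ysf3Δi strain 2, where the value was -0.41. RPL36A stood at 442 and 408, beside 628 and 616 (-0.55 ± 0.12, adjusted p of 0.011), and its call was lost without wild-type strain 1 in both phases (-0.52), without wild-type strain 2 in log phase (-0.56) and without ysf3Δi strain 2 in log phase (-0.45). Without wild-type strain 2 in log phase 1 gene was called higher and 0 lower, and without ysf3Δi strain 2 in log phase 2 were lower. Without wild-type strain 1 in both phases 28 genes were higher and 2 lower, and the authors' deposited table lists 20 genes as higher and 1 as lower.

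At 48 h mms2Δi had 27 of the 53 genes higher and 0 lower than the wild type, beside 8.54% and 2.09% of all genes tested, with a median of 0.80 (0.04 over all genes). Its libraries lay above those of the wild type for 44 genes and below for 1, beside 36.1% and 29.1% of all genes. Strain 1 exceeded strain 2 at 48 h in only 7 of the 53 genes in the wild type and in 2 in mms2Δi. Of the large-subunit genes without a coding intron 14 of 26 were higher, and of the small-subunit genes with an intron 18 of 36, with medians of 0.94 and 0.80. RPL33B stood at 0.567 and 2.89 CPM in the wild type and at 5.92 and 12.8 in mms2Δi (2.22 ± 0.52, adjusted p of 0.029). RPL43B stood at 1.13 and 3.21, and at 5.33 and 13.8 (2.03 ± 0.48, adjusted p of 0.029). Strain 1 was the lower library in both genotypes, and in both genotypes it was also the library with fewer counts, so that RPL33B had 3 reads in wild-type strain 1 and 30 in mms2Δi strain 1. The value of RPL33B was 4.0 without wild-type strain 2 and 1.48 without mms2Δi strain 2, and that of RPL43B 3.06 and 1.09. RPL42A, whose protein lines the exit site for tRNA, stood at 9.83 and 14.8 CPM and at 36.7 and 52.4 (1.82 ± 0.32, adjusted p of 0.015). The smallest called increases were RPL2A at 0.71 ± 0.17, RPL13A at 0.83 ± 0.21, RPL17B at 0.87 ± 0.20 and RPL18B at 0.88 ± 0.21 (adjusted p of 0.0319, 0.0367, 0.0274 and 0.0306). Without wild-type strain 1 at 48 h, or without mms2Δi strain 2 at 48 h, 0 genes were called, and without ysf3Δi strain 1 or 2 at 48 h 17 and 14 genes were. The authors' deposited table, under an adjusted p of 0.001, lists 11 genes as higher and 0 as lower, out of 179 genes listed.

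In ysf3Δi at 48 h, set against the same wild-type libraries, 4 genes were higher and 0 lower, beside 2.49% and 0.28% of all genes tested, with a median of 0.44 (0.01 over all genes). With library totals as the scaling 2 genes were higher and 2 lower, and DESeq2's Wald test called 20 higher and 2 lower. Both ysf3Δi libraries nevertheless lay above both wild-type libraries for 35 genes and below for 4, beside 32.5% and 31.1% of all genes. The called genes were RPL30, RPL7A, RPL42A and RPL2B. RPL7A stood at 18.0 and 41.2 CPM in the wild type and at 104 and 89.1 in ysf3Δi (1.66 ± 0.37, adjusted p of 0.0448). RPL2B, which encodes a protein of the peptidyl transferase centre, stood at 50.9 and 84.1, and at 189 and 166 (1.38 ± 0.25, adjusted p of 0.0373), and RPL42A stood at 35.2 and 34.0 in the deletion (1.45 ± 0.32, adjusted p of 0.0448). Of the large-subunit genes without a coding intron 6 of 26 were higher, and of the small-subunit genes with an intron 4 of 36. The count fell to 0 without wild-type strain 1, ysf3Δi strain 1 or ysf3Δi strain 2 at 48 h or mms2Δi strain 2 in log phase, and was 2 without mms2Δi strain 1 in log phase. The value of RPL7A was 1.23 without wild-type strain 1 at 48 h and 1.55 and 1.78 without ysf3Δi strain 1 or 2 at 48 h. Without mms2Δi strain 1 or 2 at 48 h it was 1.66 in each fit. The authors' deposited table, under an adjusted p of 0.001, lists 11 genes as higher and 1 as lower, out of 224 genes listed.

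Whether the fall at 48 h itself differed from that of the wild type was tested as a difference of the phase changes. None of the 53 genes passed for either deletion in the edgeR test, where 0% of all genes tested did. In DESeq2's Wald test none of the 53 genes passed either, and the share of all genes is not given there. At an unadjusted p under 0.05 there were 2 genes for mms2Δi, RPL37B at 0.68 ± 0.25 and RPL16B at 0.71 ± 0.32 (adjusted p of 0.502 and 0.526), and 1 for ysf3Δi, RPL30. Of all 6068 genes tested, 568 for mms2Δi and 284 for ysf3Δi had an unadjusted p under 0.05, so these 3 genes do not stand out. The median difference over the 53 genes was 0.16 for mms2Δi and -0.19 for ysf3Δi, beside 0.09 and 0.04 over all genes tested. In mms2Δi 40 genes had a positive difference, that is a smaller fall than in the wild type, and 13 a negative one, beside 3586 positive of 6068 genes. In ysf3Δi 13 were positive and 40 negative, beside 3285 positive of all genes.

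The size of the difference in log phase went with the level of the gene. The level was taken from the wild-type libraries at 48 h, which do not enter the log-phase difference but come from the same strains. Across the 53 genes Spearman's rho between that level per kb and the log2 fold change was -0.64 for mms2Δi and -0.68 for ysf3Δi, and Pearson's r with the log2 level was -0.66 and -0.68. Genes are not independent replicates, so these values are a description. Across 5650 protein-coding genes rho was -0.20 and -0.25. The 13 genes with the lowest levels had median differences of 1.37 (0.44 to 2.29) and 1.62 (0.62 to 2.76), and the 13 with the highest levels 0.26 (-0.75 to 1.43) and 0.14 (-1.49 to 1.47). Intron length showed no such relation, with rho of 0.10 and 0.09, nor did coding length, with rho of -0.08 and -0.01, and rho for the GC content of the exons was -0.19 and -0.21.

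**Figure D4:**
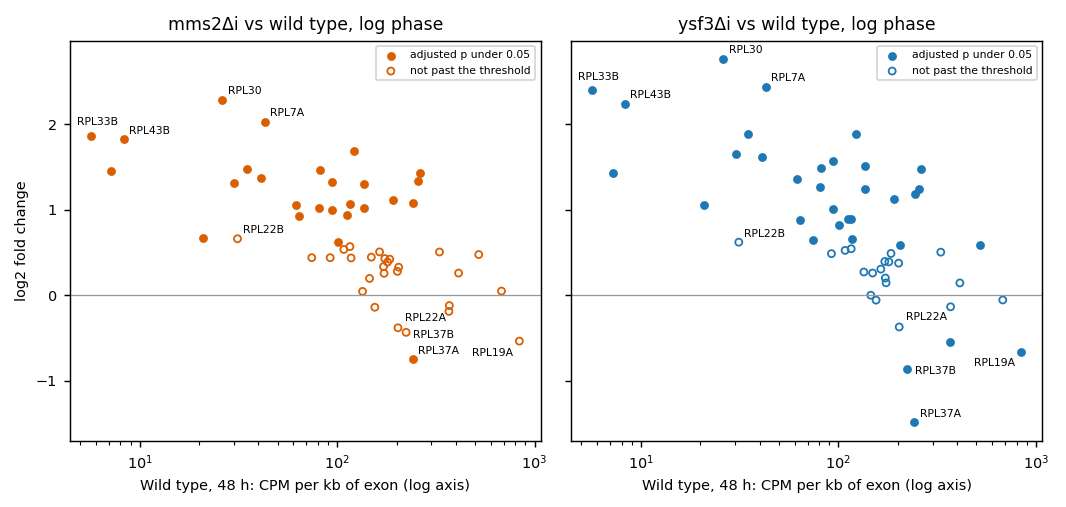
Log2 fold change of each gene against the wild type in log phase plotted over its level in the wild type at 48 h (CPM per kb of exon, log axis), for mms2Δi (left) and ysf3Δi (right). Filled points passed the test: low-level genes such as RPL33B, RPL43B and RPL30 are at the top and RPL37A, RPL37B and RPL19A at the bottom.

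The copies of a pair were set against each other as the log2 ratio of the counts of the A copy to those of the B copy in each library, described without a test. Between phases, with the genotypes pooled, 5 of 24 pairs (20.8%) had 6 log-phase values that did not overlap the 6 values at 48 h. The 5 pairs were RPL6, RPL14, RPL20, RPL22 and RPL26. Of the 36 other A and B pairs of the genome 50% did so. Apart from COX5 and NHP6 these other pairs were also pairs of ribosomal protein genes, and the pair RPP1 holds RPP1B. They are therefore not a background of unrelated genes. Pooling counts differences between genotypes as spread: within each genotype, 11 of 24 pairs (45.8%) had 48 h values that did not overlap those in log phase, in the same direction in all 3, beside 72.2% of the other pairs. The additional pairs were RPL13, RPL17, RPL19, RPL34, RPL37 and RPL40. The median size of the shift was 0.29 in the 24 pairs and 0.62 in the other pairs. Reads of near-identical copies may be split or lost in counting, which touches most the pairs RPL35, RPL7, RPL42 and RPL14, where 80.6%, 56.9%, 47.8% and 42.1% of the 50-base stretches of the coding sequence occur in both copies, while 8 pairs, RPL22 and RPL6 among them, share none.

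RPL14A and RPL14B shifted most. Their ratio in log phase was 0.73 and 0.64 in the wild type, 1.62 and 1.70 in mms2Δi and 1.98 and 1.75 in ysf3Δi, and at 48 h it was -1.35 and -0.80, 0.02 and 0.17, and -0.22 and -0.17. The mean over 6 libraries thus went from 1.40 ± 0.57 to -0.39 ± 0.58 (SD), a shift of -1.80 from the A copy towards the B copy, and within each phase the wild type lay below both deletions. RPL22 shifted by -1.49: the ratio of RPL22A to RPL22B was 4.47 and 4.89 in the wild type in log phase and 3.49 to 3.96 in the deletions, and 2.22 to 3.04 in all libraries at 48 h. The wild type stood highest in log phase, and at 48 h the genotypes overlapped. RPL34 shifted by -0.73 (-0.99 to -0.52 over the 6 strains) and RPL13 by -0.52 (-0.69 to -0.23), both without overlap within any genotype but with overlap over the pooled libraries. RPL6 shifted by 0.60, from 0.18 ± 0.13 to 0.78 ± 0.03.

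RPL26 shifted the other way, by 1.44. In log phase RPL26B exceeded RPL26A, with ratios of -1.72 and -1.40 in the wild type, -1.42 and -1.48 in mms2Δi and -1.15 and -1.04 in ysf3Δi, and at 48 h the copies were near equal, with ratios between -0.09 and 0.25. No library of a phase came near the other phase, in any genotype. Protein identity of the pair was 99.2%, and 6.9% of 50-base stretches were shared. Because the copies differ in their response, the windows from 400 to 101 bases before their start codons are printed, both from the + strand of R64, RPL26A from XII:818912-819211 and RPL26B from VII:555412-555711, with capitals at the match to the Rap1 motif.
RPL26A: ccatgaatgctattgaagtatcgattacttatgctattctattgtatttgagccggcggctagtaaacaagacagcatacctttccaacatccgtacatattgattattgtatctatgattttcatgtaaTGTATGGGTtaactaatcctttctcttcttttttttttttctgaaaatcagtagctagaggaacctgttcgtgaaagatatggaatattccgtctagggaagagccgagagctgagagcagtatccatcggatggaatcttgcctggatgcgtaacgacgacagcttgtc
RPL26B: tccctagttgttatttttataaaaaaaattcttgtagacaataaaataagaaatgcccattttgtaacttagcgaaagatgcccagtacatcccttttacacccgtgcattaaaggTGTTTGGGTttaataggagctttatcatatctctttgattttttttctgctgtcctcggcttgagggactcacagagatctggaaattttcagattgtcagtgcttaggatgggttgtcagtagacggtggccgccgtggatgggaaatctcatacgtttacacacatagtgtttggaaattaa
Both windows held 1 match to the Rap1 motif ACCCANACA, read on both strands, at 270 bases before the start codon in RPL26A and 284 in RPL26B, and neither held the Fhl1 motif GACGCA. The Rap1 motif was found in the same window of 19 of the 53 genes (35.8%) and of 133 of 6001 genes of the genome (2.2%), and the Fhl1 motif in 6 (11.3%) and 409 (6.8%). A match is a description of the letters and not of binding.

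**Figure D5:**
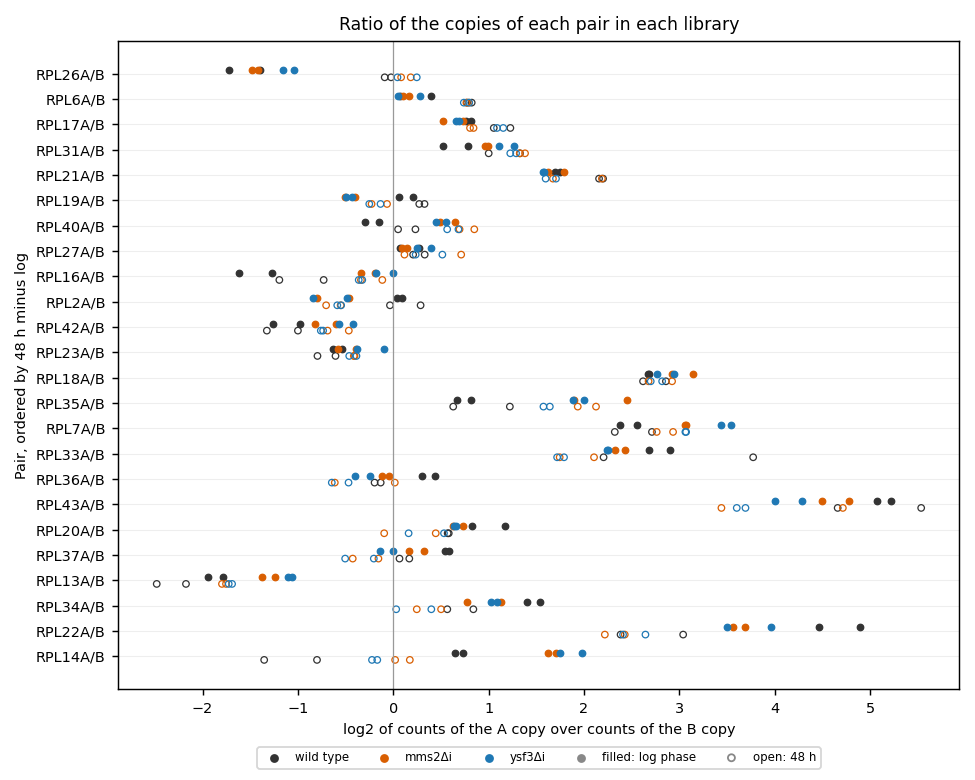
Log2 ratio of the counts of the A copy to the B copy for the 24 pairs in the 12 libraries, filled for log phase and open for 48 h. RPL26, at the top, moves from below 0 to near 0 at 48 h, and RPL22 and RPL14, at the bottom, move left by 1.49 and 1.80.

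Between genotypes 2 libraries were set against 4, so the counts cannot be read against those between phases. In log phase the 2 wild-type ratios did not overlap the 4 ratios of the deletions in 19 of 24 pairs (79.2%), beside 63.9% of the other pairs, and at 48 h in 15 of 24 (62.5%), beside 55.6%. RPL35 showed the largest shift in log phase, from 0.82 and 0.67 in the wild type to between 1.88 and 2.45 in the deletions, and RPL16 the next, from -1.28 and -1.62 to between -0.34 and -0.00. The copy with the lower level in the wild type in log phase had the larger difference in the deletion in 19 of 24 pairs in mms2Δi and 18 of 24 in ysf3Δi in log phase, and in 18 of 24 pairs in both deletions at 48 h. The log-phase counts share their wild-type libraries with the choice of the lower copy, whereas the 48 h counts do not. The 48 h wild-type libraries nevertheless come from the same strains, and this count was not made for the other pairs. Lower levels went with larger differences across 5650 protein-coding genes too, with rho of -0.20 for mms2Δi and -0.25 for ysf3Δi in log phase. RPL7, RPL14 and RPL35, 3 of the 4 pairs with the most shared sequence, were among the exceptions.

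Levels per kb, scaled by library totals without TMM factors, were also summed over both copies. Against the wild type, this scaling moved the median of all genes by -0.14 and -0.17 in mms2Δi (log phase, 48 h). In ysf3Δi it moved by -0.16 and -0.11. In the wild type in log phase the level per kb ran from 94.7 for Rpl30 and 225 for Rpl33 to 9322 for Rpl19. In mms2Δi Rpl30 was at 417 and Rpl19 at 7210.0, and in ysf3Δi at 571 and 6523. At 48 h Rpl30 stood at 26.2 in the wild type, 99.4 in mms2Δi and 82.3 in ysf3Δi, and Rpl19 at 1518, 1460.4 and 1255. These are RNA levels named by the encoded protein, and no protein was measured. The level for Rpl30 was the lowest and that for Rpl19 the highest of the 29 in each of these groups. Rpl37, the sum of RPL37A and RPL37B, stood at 3855 in the wild type in log phase, at 2280 in mms2Δi and at 1485 in ysf3Δi, with no overlap between the genotypes. RPL7A and RPL7B carry the small nucleolar RNAs snR39 and snR59 in their introns, and these had 1 count and 0 counts over the 12 libraries.

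The remaining genes without a paralog in the set differed in how firmly they moved. RPP1B, which encodes a stalk protein that recruits elongation factors, stood at 221 and 141 CPM in the wild type in log phase, at 569.8 and 598 in mms2Δi and at 782 and 559 in ysf3Δi. RPL25 stood at 399 and 269, 671 and 735, and 869 and 646 CPM, in the same order. Both genes were higher in both deletions in log phase, by 1.69 and 1.08 in mms2Δi (adjusted p of 0.012 and 0.0197) and by 1.89 and 1.18 in ysf3Δi (adjusted p of 0.00566 and 0.0118), and these calls were lost without wild-type strain 2 and, in mms2Δi, also without its strain 2. RPL39, the gene of a small protein in the wall of the tunnel, stood at 61.8 and 59.7, 113 and 142, and 153 and 72.5 CPM. It was higher in mms2Δi by 1.07 (adjusted p of 0.0281), a call lost without either wild-type library or mms2Δi strain 2, and in ysf3Δi by 0.89 (adjusted p of 0.0492), a value of 0.25 without ysf3Δi strain 1 and 1.37 without strain 2. That last call was lost in 11 of the 12 fits that left out 1 library. At 48 h RPL39 did not pass, at 0.53 and 0.03 (adjusted p of 0.293 and 0.967). RPP1B and RPL25 were higher in mms2Δi at 48 h by 1.44 and 1.18 (adjusted p of 0.0257 and 0.0278). In ysf3Δi they did not pass there, at 1.34 and 0.77 (adjusted p of 0.0532 and 0.148). Their mms2Δi values at 48 h were 1.05 and 0.85 without wild-type strain 1 at 48 h. Without mms2Δi strain 2 at 48 h they were 1.07 and 0.88. RPL28 stood at 1313 and 1533, 1970.0 and 1986, and 2494 and 1777 CPM in log phase, and did not pass in mms2Δi at 0.48 (adjusted p of 0.0788). In ysf3Δi it was higher by 0.59 (adjusted p of 0.0405), 0.32 without ysf3Δi strain 1, and that call was lost in 10 of the 12 fits. These genes and their values were chosen after the results were seen, as were RPL35 and RPL16 above.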

How the data were processed

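The labels describe ribodepleted total RNA, fragmented and made into ScriptSeq v2 libraries. All tests used the read counts per gene that the authors deposited; per the submitters' processing notes reads were aligned to sacCer3 with Bowtie2, counted with HTSeq and compared with DESeq2, all without versions. How reads over splice junctions, intronic reads, strand and reads of near-identical copies were counted is not given in the sources used here. The deposited FPKM table served to find the gene length behind it and was not tested. The authors' gene tables give log2 fold changes and adjusted p-values per the file headers, and list only genes under an adjusted p of 0.001.

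In R 4.3.3 with limma 3.58.1, edgeR 4.0.16 dropped low counts with filterByExpr, scaled libraries with TMM factors and fitted 6 group means to the 12 libraries for quasi-likelihood F tests. Adjustment was Benjamini-Hochberg over the 6068 of 7126 genes tested, and genes under an adjusted p of 0.05 were called. The fit had 6 residual degrees of freedom and a common dispersion of 0.0279, and 562 genes had no count. There were 9 comparisons. The error beside a log2 fold change is its size over the root of F and not a standard error. CPM values are counts scaled with TMM factors, whereas levels per kb are scaled by library totals without them. Annotation and sequences came from RefSeq R64, whose chromosomes match sacCer3. The fit was also run on simulated counts, drawn with the common dispersion for every gene and without differences between strains. That setting lacks the strain differences of these data, so it does not show how the calls behave under them. Python 3.11.15, pandas 2.3.3 and matplotlib 3.10.9 made tables and plots.

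The genes, lists and rules were chosen with earlier results of these data known. Named genes are RPL30, RPL22A and RPL22B, up to 4 highest and 4 lowest called genes of each comparison, genes against the majority, and the 6 pairs whose ratio shifted most. Replicates are strains of a genotype. The p-values rest on a spread between strains that is pooled over all 6 groups and informed by all genes. They do not measure the spread of the compared strains alone. The same strain was sampled in both phases, per the labels, and the residuals of a strain in its 2 phases had r of -0.207, 0.0800 and 0.0368 in the wild type, mms2Δi and ysf3Δi. Alternatives were DESeq2 size factors, library totals, no filter, DESeq2 1.42.0, strain as a block, and leaving out 1 library or wild-type strain 1.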

Additional observations from a re-analysis of the deposited data

How the results depend on the processing

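All 53 genes were lower at 48 h in each genotype under every alternative, and when 1 library was left out (53 to 53), except in the wild type without strain 1, with 51. The replicate block of strain within genotype changed none of these counts and gave 53 in each, and 0 for the differences of the phase changes. In the comparisons with the wild type, strains of different genotypes share only a number; with strain number as a replicate block 24 genes were higher and 0 lower in mms2Δi in log phase, 20 and 0 at 48 h, 26 and 4 in ysf3Δi in log phase, and 0 and 0 at 48 h. The 1 lower gene of mms2Δi in log phase became 0 with DESeq2 size factors, 5 with library totals, 2 with DESeq2's Wald test and 0 without wild-type strain 1. Without that strain in both phases 0 genes were higher at 48 h in either deletion, and 2 were lower in ysf3Δi in log phase. In ysf3Δi at 48 h 2 genes were higher and 2 lower with library totals, 7 higher without the filter, and 20 higher and 2 lower with DESeq2. Leaving out 1 library at a time gave, for mms2Δi, 0 to 30 higher and 0 to 3 lower in log phase and 0 to 31 higher and 0 to 0 lower at 48 h, and for ysf3Δi 1 to 33 higher and 0 to 4 lower in log phase and 0 to 11 higher and 0 to 2 lower at 48 h. The pairs without overlap between phases numbered 5 to 6, and 11 when phases were compared within each genotype, an alternative chosen after seeing the data, in which fewer libraries are set against each other. The cause was not tested. Library totals moved the median of all genes by -0.14, -0.17, -0.16 and -0.11 (mms2Δi in log phase and 48 h, then ysf3Δi), with medians of the 53 genes then of 0.42, 0.63, 0.47 and 0.33. RPL33B, RPL43B and RPL30 had few counts at 48 h, which limits their values there.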
